A study of Mus musculus with 12 samples.

Results

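The livers of control mice were compared with control macrophages of a cell line, in 6 of the 12 RNA-sequencing libraries of a study on esculetin, and no library of an esculetin-treated sample was used. The comparison asks how the 2 systems of the study differ without esculetin. The 3 liver control libraries came from male C57BL/6J mice aged 8 to 9 weeks. These mice were gavaged for 7 days with the vehicle, 2.5% Tween-80, and ate a control diet (10 kcal% fat) for 4 days, followed by a high-fat diet (HFD, 60 kcal% fat) for 3 days. Each liver library was a pool of a pair of animals, as the study describes. The 3 macrophage control libraries came from RAW264.7 cells that had been exposed for 24 hr to 25 µg/mL of DIL-labelled oxidized low-density lipoprotein (DIL-oxLDL). Their labels give the treatment as dimethyl sulfoxide, the study's solvent for esculetin in cells, and these cells received no esculetin. RAW264.7 is a macrophage-like line from a mouse tumour induced by Abelson leukaemia virus, so its 3 libraries share 1 transformed cell population. Samples were taken by their labels. The comparison and the gene lists were chosen with earlier results of these data known. Tissue, strain, diet, culture, lipoprotein load and transformation all differ together between the groups and cannot be told apart. The labels name no library batch, and a batch difference between the groups could not be told apart from these. In RNA from whole tissue, fewer cells of a type and less RNA per cell cannot be told apart either.

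Most of the liver is made of hepatocytes, which secrete albumin, apolipoproteins, clotting factors and complement into blood, make bile acids, dispose of ammonia through the urea cycle and hold most of the body's cytochrome P450 enzymes. A small set of nuclear factors, among them HNF4A, the FOXA proteins and C/EBPα, is known to keep this programme on. Macrophages engulf particles and lipoproteins, digest them in lysosomes and sense microbes through Toll-like receptors. PU.1, encoded by Spi1, and the receptor for colony-stimulating factor 1, encoded by Csf1r, are central to their identity. The liver has resident macrophages of its own, the Kupffer cells.

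The groups were first checked against 4 defining genes, 2 for each identity. Alb, which encodes albumin, held 1383274, 1977485 and 1624612 reads in the 3 liver libraries and 1, 1 and 2 in the macrophage libraries. On the log2 scale the ratio of the summed, scaled counts was 21.76, with an exact 95% Poisson interval of 20.40 to 23.63 that covers counting error only. Apoa1, the main protein of high-density lipoprotein, held 182765, 287979 and 297199 reads in liver and none in any macrophage library. Against a floor of 3 reads in each library, this was at least 241800.0-fold higher in liver. Levels are given below as CPM, the read counts scaled to a common library size after TMM normalization, and fold changes as log2 of liver over macrophages, so that positive values mean higher in liver. Levels written with ± are the mean and SD of 3 libraries, and a fold change is given with its standard error. Lyz2, which encodes lysozyme M, stood at 94.5, 112 and 151 CPM in liver and at 395, 433 and 381 CPM in the macrophages. Cd68, a lysosomal membrane protein of macrophages, stood at 21.2, 26.3 and 27.1 CPM in liver and at 312, 366 and 366 CPM in the macrophages. Neither gene overlapped between the groups. The log2 fold changes were -1.76 ± 0.17 (SE) for Lyz2 and -3.80 ± 0.14 for Cd68, with adjusted p = 3.15e-06 and 2.27e-09 by edgeR's quasi-likelihood test with Benjamini-Hochberg adjustment. Over the whole hepatocyte list, 16 genes took 14.6 to 15.2% of the liver counts and 0.000109 to 0.000143% of the macrophage counts, with 8 genes at 0 in all macrophage libraries. The libraries matched their labels, but the 2 macrophage genes were also present in every liver library, whereas the 2 hepatocyte genes were at or near 0 in the macrophages.

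The 150 bases before the annotated start of each of these 4 genes are shown because they are the proximal promoters of the genes that define the comparison. They were read 5′ to 3′ on the strand of the gene from build GRCm39 with the GENCODE annotation, and capitals mark matches to the motifs described at the end.
Alb, chr5:90608599-90608748, plus strand: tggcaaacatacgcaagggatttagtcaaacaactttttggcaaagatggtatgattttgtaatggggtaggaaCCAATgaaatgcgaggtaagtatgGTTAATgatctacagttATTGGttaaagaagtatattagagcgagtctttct
Apoa1, chr9:46139728-46139877, plus strand: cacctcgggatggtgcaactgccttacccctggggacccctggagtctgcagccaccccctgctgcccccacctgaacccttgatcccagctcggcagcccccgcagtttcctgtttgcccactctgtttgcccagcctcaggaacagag
Lyz2, chr10:117118227-117118376, minus strand: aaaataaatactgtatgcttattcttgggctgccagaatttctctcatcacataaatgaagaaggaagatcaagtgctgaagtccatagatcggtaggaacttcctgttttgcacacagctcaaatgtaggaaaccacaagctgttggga
Cd68, chr11:69557068-69557217, minus strand: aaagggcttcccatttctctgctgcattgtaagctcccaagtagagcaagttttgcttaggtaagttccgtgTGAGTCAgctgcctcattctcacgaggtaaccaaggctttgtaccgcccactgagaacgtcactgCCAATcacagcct
The Alb stretch held GTTAAT, a core of homeodomain sites, at positions -52 to -47 from the start, between a pair of CCAAT boxes. The Cd68 stretch held an AP-1 element, TGAGTCA, at -78 to -72 and a CCAAT box at -13 to -9. No letters of the searched motifs were present in the Apoa1 or Lyz2 stretches.

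**Figure D1:**
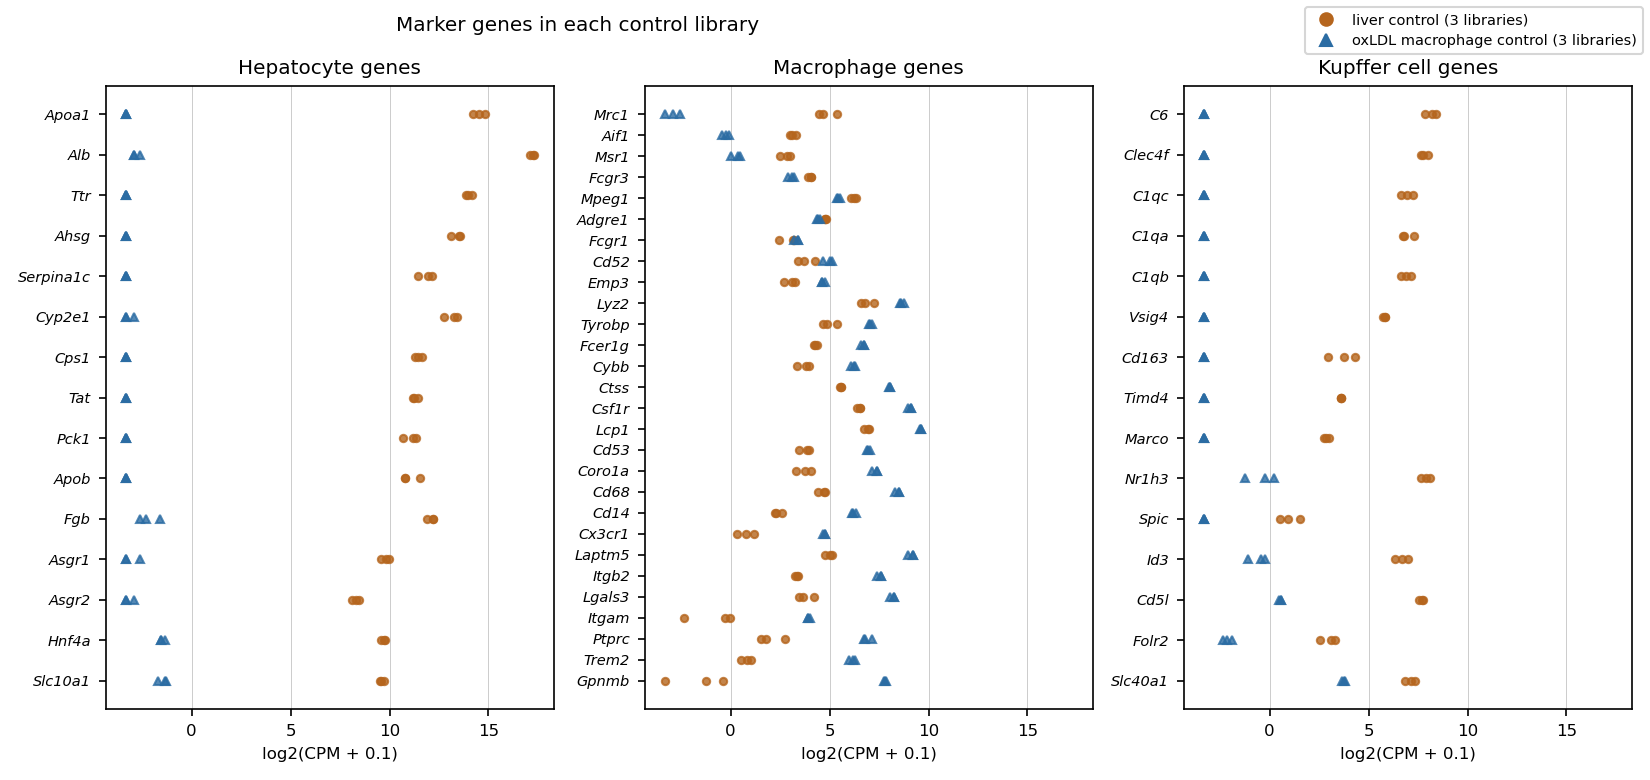
Levels of marker genes in each control library, as log2 of CPM plus 0.1 on the horizontal axis, with 1 point per library; brown circles are the 3 liver control libraries and blue triangles the 3 oxLDL macrophage control libraries. The 15 hepatocyte genes shown and 15 tested Kupffer cell genes lie far to the right in liver, whereas the 28 macrophage genes lie on both sides, from Mrc1, far higher in liver, to Gpnmb, far higher in the cell line.

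The 6 libraries held 14659876 to 20346460 reads assigned to genes in liver and 18284706 to 20001959 in the macrophages. Between-library correlations of log2 CPM across genes were 0.973 to 0.985 within liver, 0.994 to 0.996 within the macrophages and 0.321 to 0.349 between the groups, and the first principal component, which separated the groups, held 97.5% of the variance. The second component held 1.31% and set liver replicate 1 apart from the other liver libraries. Pooled liver samples varied more than the cultures. The median SD of log2 CPM was 0.262 over the liver libraries and 0.119 over the macrophage libraries, and the SD was larger in liver for 79.1% of tested genes. This share includes 1172 tested genes at 0 in all macrophage libraries and 433 at 0 in all liver libraries, which have almost no spread there. Scaled depth was also lower in liver, so counting noise enters its spread more. Nothing in the labels says whether the cultures were grown separately, so p-values measure the spread between these samples only.

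The liver put its reads into far fewer genes. Alb alone took 9.11 to 9.72% of the counts of each liver library, whereas the most abundant gene of the macrophages, the mitochondrial mt-Co1, took 2.99 to 3.44%. Between 28.7 and 30.5% of the liver counts fell on the top 20 genes, against 12.8 to 13.2% in the macrophages. To reach 50% of the counts, 106 to 128 genes were enough in liver, against 727 to 784 in the macrophages. At least 1 CPM was reached in all libraries of a group by 11259 protein-coding genes in liver and by 10166 in the macrophages, and 9050 reached it in all 6 libraries. This level needs fewer reads in liver, where 3 reads a library stand for 0.28 CPM, than in the macrophages, where they stand for 0.0975 CPM. Genes of any type with at least 1 read numbered 17480 to 18458 in the liver libraries and 18968 to 19169 in the macrophage libraries, the other way round.

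**Figure D2:**
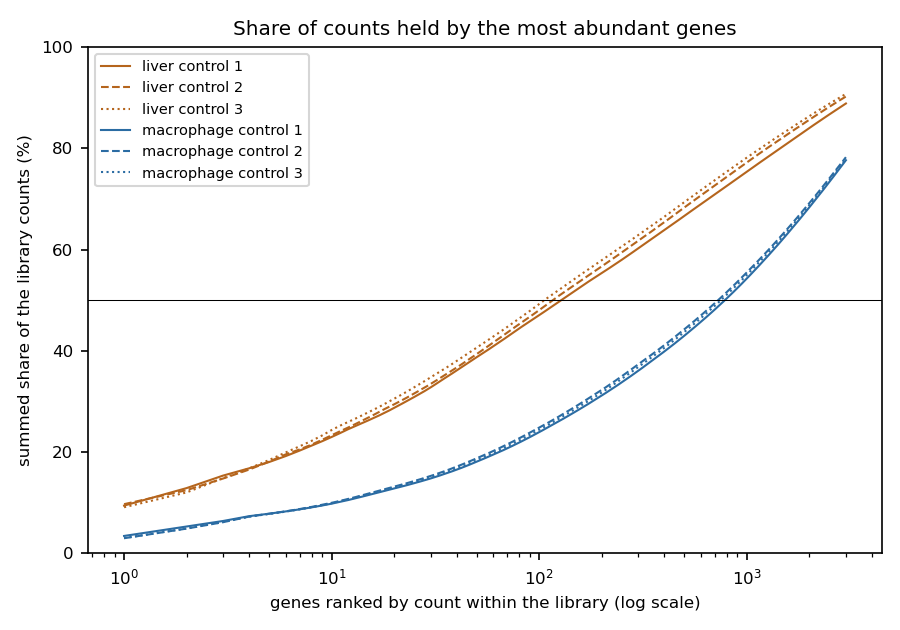
Summed share of the library counts (%) held by the most abundant genes, against the rank of the gene within its library on a log scale, with 1 line per control library; brown lines are liver and blue lines oxLDL macrophages, and the horizontal line marks 50%. The 3 liver lines cross 50% at 106 to 128 genes and the 3 macrophage lines at 727 to 784 genes.

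Nearly the whole transcriptome differed. Of 14861 tested genes, 12594 (84.7%) were called at an adjusted p under 0.05 by edgeR's quasi-likelihood test. Of these, 6369 (42.9% of tested genes) were higher in liver and 6225 (41.9%) were higher in the macrophages. The groups did not overlap in 12483 of the called genes and in 12896 of all 14861 tested genes. A lack of overlap, given below for single genes, was thus shared by most genes. A call alone therefore says little about any gene, and the size of a difference says more. By glmTreat, which tests whether a difference exceeds 4-fold, 3439 genes (23.1%) were higher in liver and 2422 (16.3%) were higher in the macrophages. Called genes with a log2 fold change over 5 numbered 2256 higher in liver and 941 higher in the macrophages, and beyond 10 there were 947 and 56. The balance of directions depends on the scaling. With library size alone in place of TMM, 2605 genes passed 4-fold higher in liver and 5039 higher in the macrophages, so this balance turned. Beyond a log2 fold change of 5 there were then 1948 and 1516 called genes, and beyond 10 there were 724 and 82. Under that scaling the share of called genes that were higher in liver was 29.3% in place of 50.6%, and the median log2 fold change of all tested genes moved from -0.01 to -1.40. Counts of list members below are from TMM, with those from library size alone beside them where the balance turned. They are to be read against the 42.9% and 41.9% of all tested genes called higher in liver and in the macrophages. A list split near these shares is not a trait of that list. A gene with no reads in one group entered the test only through the group where it was high, so its call is a description. Its fold is given as a bound.

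**Figure D3:**
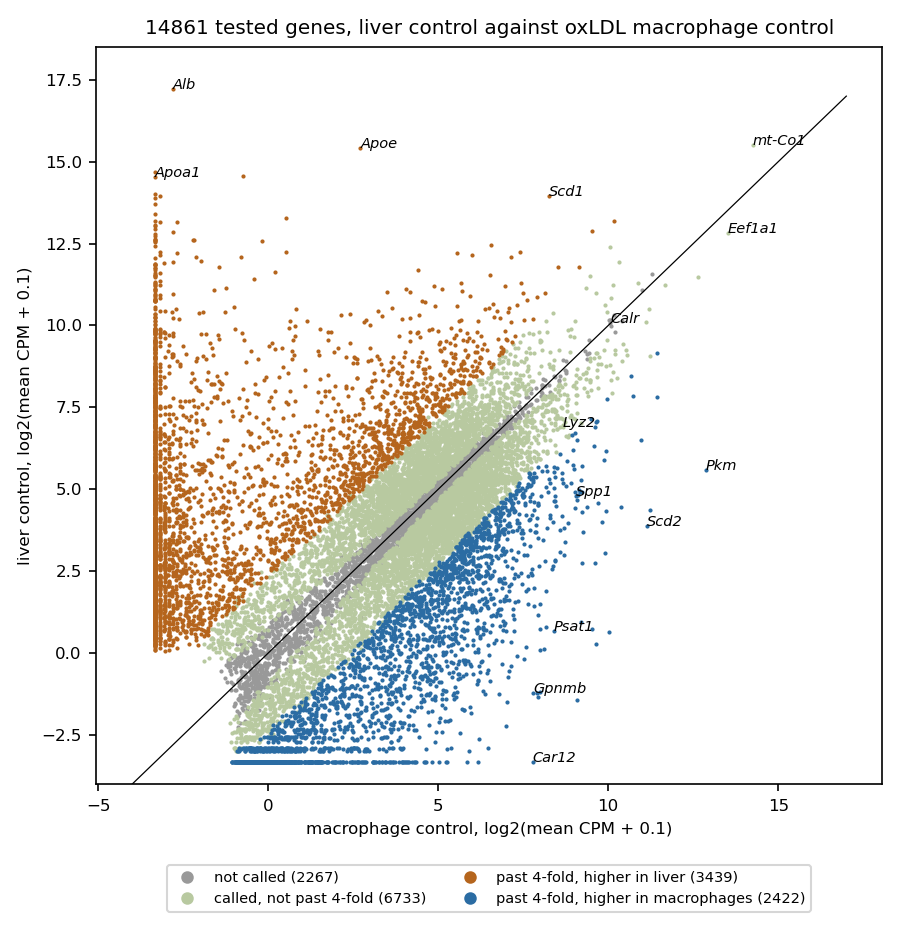
Mean level of each of the 14861 tested genes in the liver control libraries (vertical axis) against the macrophage control libraries (horizontal axis), both as log2 of mean CPM plus 0.1, with n = 3 libraries a group; the diagonal line marks equal levels. Grey genes were not called, green genes were called without passing 4-fold, and the 3439 brown and 2422 blue genes passed 4-fold in liver and in macrophages. The column of points at the left edge holds genes with no reads in the macrophages, with Apoa1 near its top.

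Genes of secreted hepatocyte proteins were among those that differed most. All 31 listed plasma protein genes were called higher in liver, where together they took 18.9 to 21.1% of the counts, and 19 of them had no reads in any macrophage library. Their median log2 fold change was 15.43 with the genes at 0 set to their bound. Serpina3k, a serine protease inhibitor, had the highest bound of the genes with no macrophage reads. It stood at 16256, 28804 and 33286 CPM in liver, at least 267857-fold above the macrophages. Ttr, the carrier of thyroid hormone and retinol-binding protein, Serpina1b, an alpha-1-antitrypsin gene, Ahsg, which encodes fetuin-A, and Gc, the vitamin D carrier, were at least 168143, 157075, 110866 and 94959.8-fold higher. The Serpina1 genes are near-identical copies and the Serpina3 genes are related copies, so how reads were split within each family is uncertain. Trf, which encodes the iron carrier transferrin, was not fully absent from the macrophages, at 24371 ± 2465 against 0.504 ± 0.298 CPM (SD, n = 3).

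Apolipoproteins followed the same pattern, with 13 of 13 tested genes called higher in liver and 5.59 to 6.56% of the liver counts. Apoe, which macrophages are known to secrete as well, was the exception in level and not in direction. It held 362370, 562249 and 502124 reads in liver and 205, 210 and 180 in the macrophages, and its level was 43693 ± 5910.5 against 6.46 ± 0.82 CPM, a log2 fold change of 12.72 ± 0.36. Apoa2 followed at 9867 ± 1653 against 1.35 ± 0.104 CPM. Mttp, which loads lipid onto apolipoprotein B, had the smallest difference of the list, a log2 fold change of 6.27 ± 0.16, whereas Apob itself had no macrophage read. Apoc2 did not pass the filter on low counts.

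Clotting and complement genes were mainly hepatic, with exceptions. Among 27 tested coagulation genes 23 were higher in liver, 3 were higher in the macrophages and 1 was not called. Fga and Fgg, which encode fibrinogen chains, and Plg, which encodes plasminogen, had no macrophage reads and stood at 5468 ± 586, 3758 ± 233 and 2479.9 ± 302 CPM in liver. On the other side Plau, which encodes urokinase, stood at 2.26, 3.78 and 2.13 CPM in liver and 192, 204 and 198 CPM in the macrophages, a log2 fold change of -6.16 ± 0.20. Its receptor Plaur was at -2.72 ± 0.24. F3, the tissue factor that starts clotting, was at 3.27 ± 0.124 against 2.86 ± 0.611 CPM and was not called. All 25 complement genes were called higher in liver, from Serping1 and Mbl2 with no macrophage reads down to Cfp, which encodes properdin and is known from myeloid cells. Cfp stood at 64.5 ± 10.1 against 49.4 ± 5.11 CPM, and its direction turned with library size alone as the scaling, at -1.01. C3 was at 6132 ± 1227 against 0.776 ± 0.163 CPM.

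Metabolic enzymes of the hepatocyte came next. For cytochrome P450 enzymes, 24 of 25 tested genes were higher in liver, and 19 of the 26 listed genes with a match had no macrophage reads. Cyp2e1, which oxidizes ethanol, led the list at 6954, 11048 and 9648 CPM, against a single read in 1 macrophage library. Cyp3a11 and Cyp2d9 followed at 3136 ± 206 and 2564 ± 775 CPM with no macrophage reads. Por, the reductase that feeds electrons to these enzymes, was at 145 ± 29.1 against 85.5 ± 8.9 CPM and turned with library size alone, to -0.63, and Cyp20a1 was higher in the macrophages, at -0.97 ± 0.14. Conjugating enzymes were higher in liver for 24 of 25 genes, with Gsta3 and Ugt2b5 near or at 0 in the macrophages and Gstp1 at 2088 ± 563 against 11.1 ± 0.398 CPM. Ugt1a7c went the other way at -3.16 ± 0.32. It shares exons with the other Ugt1a genes, which leaves its count uncertain.

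Urea cycle and amino acid disposal genes were far higher in liver, and every tested gene of both lists (10 and 34) was called higher there. Cps1, which makes carbamoyl phosphate, stood at 2818, 3178 and 2527 CPM and had no macrophage read. Ass1 was at 4762 ± 611 against 0.0552 ± 0.0499 CPM, and Arg1, the arginase that releases urea and that is also known from alternatively activated macrophages, was at 2187 ± 307 against 0.232 ± 0.162 CPM. Bhmt and Mat1a, enzymes of the methionine cycle, reached 8482 ± 2273 and 6247 ± 752 CPM with no macrophage reads. The smaller differences lay in mitochondrial steps shared by many cells, such as Slc25a13 and Pcca at log2 fold changes of 2.89 ± 0.12 and 2.19 ± 0.12. Bile acid genes were higher in liver for 19 of 19 tested genes. Cyp7a1, the rate-limiting enzyme of the classic route, was at 28.6, 20.5 and 19 CPM, Cyp8b1 at 705, 762 and 941 CPM and Cyp7b1 at 93, 148 and 165 CPM, with no macrophage reads in all 3. Cyp27a1, which oxidizes the sterol side chain and is known from macrophages too, was at 732 ± 153 against 17.8 ± 1.45 CPM.

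Genes known to be restricted to one zone of the liver lobule were present from both ends. The 10 periportal genes took 0.856 to 0.914% of the liver counts and the 10 pericentral genes 0.756 to 1.02%. On the periportal side Cyp2f2 and Hal reached 1723 ± 233 and 783 ± 52.4 CPM. On the pericentral side Cyp1a2 and Slc1a2 reached 753 ± 104 and 98.8 ± 9.36 CPM. Oat and Glul were the pericentral genes with clear macrophage expression, at 1497 ± 170.4 against 89.9 ± 1.78 CPM and 1167 ± 152 against 15.2 ± 0.43 CPM. The growth hormone axis had 17 of 20 genes higher in liver. Mup3 and Mup20, major urinary proteins that male liver is known to make, were at 15940.0 ± 2785 and 6036 ± 1811 CPM. Igf1 was at 624 ± 63.4 against 1.05 ± 0.102 CPM and the receptor Ghr at 456 ± 40.3 against 0.0662 ± 0.0684 CPM. Bcl6 alone was higher in the macrophages, at -1.28 ± 0.30, while Stat5a and Cux2 were not called.

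Iron handling genes were mostly higher in liver. Of 24 genes 18 were higher in liver, 4 were higher in the macrophages and 2 were not called. Hamp, the gene of the iron hormone hepcidin, stood at 509, 625 and 457 CPM in liver and 0, 0.0683 and 0 CPM in the macrophages, and Hamp2 at 125 ± 30.1 CPM with no macrophage read. Slc40a1, the iron exporter, was at 139 ± 24.7 against 13.2 ± 0.814 CPM. Those higher in the macrophages were Hmox1, which breaks down haem, at 41.8 ± 8.4 against 219 ± 17.6 CPM, Slc11a1, the phagosomal metal transporter, at 14.2 ± 0.626 against 25 ± 0.869 CPM, the iron sensor Ireb2 and the transferrin receptor Tfrc. Ferritin heavy chain, Fth1, did not pass the test at 3022 ± 457 against 2508 ± 207 CPM.

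Many metabolic steps are carried out by one gene of a family in liver and by another elsewhere, and 26 such pairs were compared within each library, where scaling cancels. The values below are log2 ratios of reads per exon length, liver form over other form, with a gene at 0 set to 3 reads. In 24 pairs the liver form was above the other form in all 3 liver libraries. In 25 pairs it was below in all 3 macrophage libraries. Both held for 23 pairs, and in 25 pairs every liver ratio was above every macrophage ratio.

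Pairs of glucose metabolism stood far apart. Pklr over Pkm, the pyruvate kinases, was 4.66, 4.40 and 4.09 in liver and -14.25, -14.41 and -14.52 in the macrophages. Slc2a2 over Slc2a1, the glucose transporters GLUT2 and GLUT1, was 3.76, 3.03 and 3.39 in liver and -12.07, -12.19 and -12.30 in the macrophages. Pklr and Slc2a2 had no macrophage read in any library, so their macrophage ratios are upper limits.

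The lipid enzymes and receptors turned as well. Scd1 over Scd2, the desaturases that make oleate, was 10.25, 10.01 and 10.10 in liver and -2.87, -2.77 and -2.81 in the macrophages. Soat2 over Soat1, which store cholesterol as esters, was 4.70, 5.05 and 4.29 in liver and -5.19, -4.88 and -5.35 in the macrophages. Lipc over Lpl, hepatic over lipoprotein lipase, was 5.75, 6.61 and 6.46 in liver and -9.08, -8.87 and -11.93 in the macrophages. In each of these the sign was the same in all 3 libraries of a group and opposite between the groups, which also held for the next 2. Nr1h3 over Nr1h2, which encode the sterol sensors LXRα and LXRβ, was 1.53, 1.52 and 1.60 in liver and -7.36, -5.73 and -6.21 in the macrophages. Cebpa over Cebpb, for C/EBPα and C/EBPβ, was 2.23, 1.84 and 2.08 in liver and -4.35, -4.87 and -5.20 in the macrophages. Ppara over Pparg, nuclear receptors of fatty acids, was 2.69, 2.23 and 2.10 in liver. In the macrophages Ppara held 0, 0 and 2 reads and Pparg none, so their ratio was not measured there, although the pair is among the 25 whose ratios did not overlap.

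Lactate dehydrogenase and the ADP/ATP carriers did not turn. Ldha stayed the main lactate dehydrogenase in both groups, with Ldhb over Ldha at -9.63, -8.52 and -8.53 in liver and -14.07, -14.13 and -14.29 in the macrophages. For the carriers, Slc25a4 over Slc25a5 was -7.25, -7.17 and -7.26 in liver and -2.63, -2.76 and -2.74 in the macrophages. Slc25a4 was higher in the macrophages, at 9.1 ± 0.868 against 120.0 ± 1.95 CPM.

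**Figure D4:**
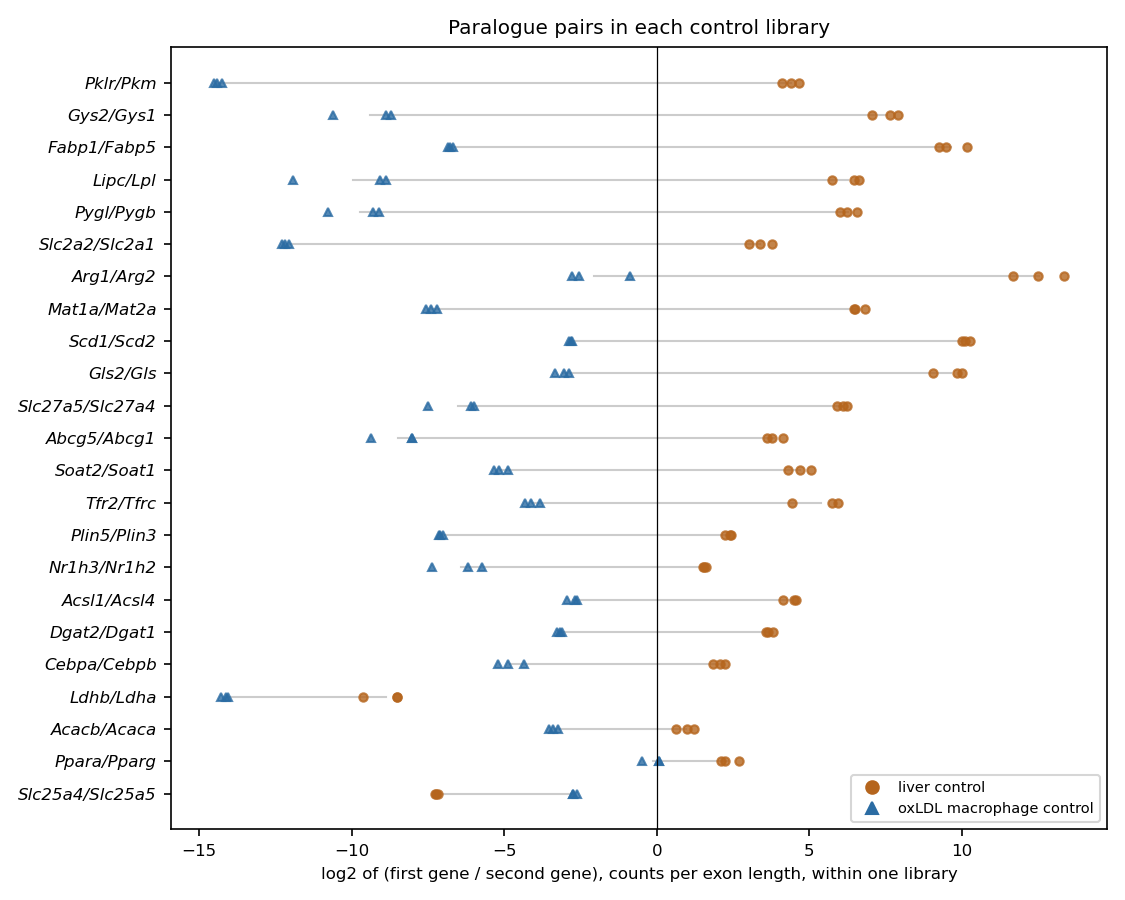
Log2 ratio of the first to the second gene of 23 of the 26 pairs, from reads per exon length within one library, with 1 point per library; brown circles are liver control, blue triangles oxLDL macrophage control, and grey lines join the group means. Pairs are ordered by the difference between the groups: in 20 of these the 3 liver points lie right of 0 and the 3 macrophage points left of 0, and Slc25a4/Slc25a5 at the bottom is the pair in the reverse order. The macrophage points of Ppara/Pparg rest on 2 reads in all and on the floor of 3 reads for a gene at 0.

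Most glycolysis genes were higher in the cell line. Of 21 genes 15 were called higher in the macrophages, 2 were higher in liver and 4 were not called, with a median of -2.23 against -0.01 for all tested genes. Pkm stood at 36.8, 43.9 and 62.1 CPM in liver and 6751, 7938 and 7791 CPM in the macrophages, a log2 fold change of -7.30 ± 0.27. Slc16a3, which exports lactate, was at -8.08 ± 0.20, the phosphofructokinase Pfkp at -6.86 ± 0.18 and hexokinase Hk1 at -5.60 ± 0.14. The 2 genes that were higher in liver, Gapdh and Ldha, differed by 0.77 ± 0.11 and 0.43 ± 0.15, and both turned with library size alone, to -0.62 and -0.97. Glucose output and glycogen genes showed the other side, with 16 of 18 higher in liver. Pck1, which commits carbon to glucose, stood at 1643, 2345 and 2608 CPM in liver with no macrophage read, while the glycogen branching enzyme Gbe1 was higher in the macrophages by a small amount, at -0.74 ± 0.13. Of the 7 pentose phosphate genes, the entry enzyme G6pdx was 12.2 ± 0.41 against 101 ± 6.19 CPM, the only one of the list past 4-fold.

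Fatty acid oxidation was higher in liver throughout the list. All 24 genes of fatty acid oxidation were called higher in liver, both with TMM and with library size alone, with a median of 3.79. Peroxisomal Acaa1b and mitochondrial Acaa2 were at 3194 ± 301 against 1.06 ± 0.0223 CPM and 2350.3 ± 474 against 29.3 ± 1.55 CPM. The smallest log2 fold changes were for Acaa1a and Acadl, at 1.96 ± 0.15 and 1.98 ± 0.11. Oxct1, which other tissues need to burn ketone bodies, was at 7.59, 5.23 and 7.85 CPM in liver and 356, 335 and 341 CPM in the macrophages, a log2 fold change of -5.65 ± 0.17. Peroxisome genes were higher in liver for 22 of 23, the exception being Agps, an enzyme of ether lipid synthesis, at -2.75 ± 0.16.

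Fat synthesis was mixed by enzyme. Of 22 genes 16 were higher in liver, 2 in the macrophages and 4 were not called, and with library size alone 13 and 7 were higher in liver and in the macrophages. Scd1 was among the most abundant liver genes at 17492, 14667 and 15137 CPM, against 291, 319 and 309 CPM, and Scd2 stood at 15, 14.8 and 14.4 CPM in liver against 2229, 2278 and 2262 CPM in the macrophages. Thrsp and Elovl3 were near 0 in the macrophages. The carbon-supplying enzymes Acly and Me1 were not called, at 348 ± 27.2 against 341 ± 19.6 CPM and 293 ± 27.1 against 265 ± 7.42 CPM, and Fasn was 739 ± 107 against 261 ± 19.3 CPM.

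Cholesterol genes differed in both directions. In the synthesis list 18 of 27 genes were higher in liver, 7 were higher in the macrophages and 2 were not called, with a median of 0.75. With library size alone the calls were 9 and 16 and the median -0.64, so the direction of this list depends on the scaling. Srebf2, Mvd, Fdps, Sqle and Lss were among those higher in the macrophages under both scalings. Srebf2, the master regulator of the pathway, stood at 90.2, 109 and 94.2 CPM in liver and 407, 448 and 452 CPM in the macrophages, without overlap. Sc5d and Ebp, which act late in the route, were higher in liver at 3.92 ± 0.15 and 4.69 ± 0.14.

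Receptors of lipoproteins differed in both directions. Cd36, which takes up oxidized LDL, stood at 57.8, 34.8 and 40.3 CPM in whole liver and at 2.43, 2.05 and 2.84 CPM in the macrophages, a log2 fold change of 4.17 ± 0.23 with no overlap between the groups. Msr1, scavenger receptor A, was at 6.8 ± 1.21 against 1.13 ± 0.191 CPM. Olr1, the lectin-like receptor, did not pass the filter, with 0 to 3 reads a library, and Marco was without a macrophage read against 7.18 ± 0.602 CPM in liver. Cd68, a scavenger receptor known to bind oxidized LDL, was at 21.2, 26.3 and 27.1 CPM in liver and 312, 366 and 366 CPM in the macrophages. Lrp1, which clears lipoprotein remnants, was more abundant in the macrophages, at 684, 797 and 587 CPM in liver and 1312, 1477 and 1388 CPM in the macrophages. Scarb1, which takes up cholesterol from HDL, was at 298 ± 39.6 against 198 ± 10.9 CPM and its direction turned with library size alone, to -0.80.

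Genes of sterol export and storage also went both ways. Abca1, which exports cholesterol to apolipoprotein A-I, held 1, 1 and 2 reads in the macrophages against 89.4, 60.7 and 37.5 CPM in liver. Abcg1 was the exporter present in the macrophages, at 14.8, 13 and 10.8 CPM in liver and 55.3, 49.3 and 52.3 CPM in the macrophages. Nr1h3 was at 241 ± 38.4 against 0.708 ± 0.368 CPM, whereas its partner Nr1h2 was 56.1 ± 7.54 against 37.5 ± 0.976 CPM and turned with library size alone, to -0.81. Pparg had no macrophage read against 21.4 ± 3.86 CPM in liver. Lpl, which releases fatty acids from lipoproteins, was at 28.4, 18.1 and 19.8 CPM in liver and 724, 660.1 and 620.2 CPM in the macrophages, and every macrophage library was above every liver library. Soat1, which forms the cholesterol esters of foam cells, was at 6.15, 4.99 and 6.3 CPM in liver and 217, 218 and 209 CPM in the macrophages. For droplet coats, Plin2 was at 1727 ± 127 against 23.1 ± 0.215 CPM, and Plin5 was without a macrophage read. Plin3 was at 64.3 ± 8.16 against 31.5 ± 1.86 CPM and turned with library size alone, to -0.36. Over the whole list of lipid uptake, storage and efflux 28 of 38 tested genes were higher in liver, 7 in the macrophages and 3 were not called. By library size alone 22 were higher in liver and 16 in the macrophages.

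Macrophage genes were shared between the groups and only partly separated them. Of 28 core macrophage genes 21 were called higher in the cell line, 6 were higher in liver and 1 was not called, with a median of -2.53. Their summed level was 721 to 799.8 CPM in the liver libraries and 4380.3 to 4776 CPM in the macrophage libraries. Csf1r stood at 84.8, 93.9 and 93.1 CPM in liver and 495, 560.0 and 554 CPM in the macrophages. Ptprc, the CD45 antigen of leukocytes, was at 6.67, 3.38 and 2.81 CPM in liver and 142, 106 and 110.3 CPM in the macrophages. Trem2, a lipid-sensing receptor, was at 1.33, 1.93 and 1.65 CPM in liver and 64.1, 77.5 and 72.1 CPM in the macrophages. The lowest macrophage library was above the highest liver library for all 3 genes. Gpnmb, a glycoprotein of lipid-laden macrophages, was the most one-sided of the list toward the macrophages, with 0, 4 and 7 reads in liver against 213, 219 and 234 CPM in the macrophages and a log2 fold change of -9.33 ± 0.32.

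The 6 core genes on the liver side were Mrc1, Aif1, Msr1, Fcgr3, Mpeg1 and Adgre1. Mrc1, the mannose receptor CD206, stood at 41.9, 25.2 and 22.1 CPM in liver and held 0, 2 and 1 reads in the macrophages. It is also known from the sinusoidal endothelium of liver. Adgre1, which encodes F4/80, was nearly level at 27.7 ± 0.721 against 21.4 ± 0.973 CPM. The calls of Fcgr3, Mpeg1 and Adgre1 turned with library size alone, to -0.44, -0.60 and -1.01. Fcgr1, the high-affinity IgG receptor CD64, was not called, at 7.74 ± 2.09 against 9.95 ± 0.869 CPM.

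Genes of resident Kupffer cells were absent or low in the line. All 15 tested genes were called higher in liver. Of the 16 listed genes 10 had no read in any macrophage library, among them Clec4f, C6, Vsig4, Timd4 and the 3 genes of complement C1q. Clec4f, a lectin found on Kupffer cells, stood at 203, 216 and 256 CPM in liver, at least 2308-fold above the macrophages, and C1qa at 106, 111 and 155 CPM. The list is mixed in its cells, since C6 and Nr1h3 are also made by hepatocytes and Id3 by many types. Cd5l and Slc40a1 had the highest macrophage levels of the list, at 1.26, 1.4 and 1.39 and 13.9, 13.5 and 12.3 CPM.

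Liver transcription factors were one-sided, whereas those of macrophages were not. All 18 liver factors were called higher in liver, 8 of them with no macrophage read. Hnf4a stood at 848, 887 and 762 CPM in liver and 0.292, 0.239 and 0.247 CPM in the macrophages. Nr1h4, the bile acid receptor FXR, and Foxa2 were at 189 ± 5.09 and 48.8 ± 20.7 CPM in liver and had no macrophage read. Cebpa was at 760.4 ± 105 against 1.55 ± 0.372 CPM. Of 20 factors known from macrophages 11 were higher in the line, 8 in liver and 1 was not called. Over all tested genes these shares were 41.9% and 42.9%. Spi1 stood at 11.6, 12.7 and 13.1 CPM in liver and 73.1, 75.8 and 81.2 CPM in the macrophages, without overlap. Runx1, a factor of the blood lineage, stood at 1.23, 0.402 and 0.678 CPM in liver and 55.1, 55.6 and 55.1 CPM in the macrophages. Mitf, which drives lysosomal genes, was at -3.77 ± 0.19 and Ikzf1 at -4.06 ± 0.15. Maf, a factor of resident macrophages that other liver cells make too, was near 0 in the line, with 1 read in 1 library, against 26.3 ± 9.1 CPM in liver. Cebpb was 106 ± 22.6 against 24.3 ± 1.52 CPM, a log2 fold change of 2.12 ± 0.17 in favour of liver.

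Sensors of microbes were mostly higher in the line, 16 of 26 tested genes against 9 in liver. Tlr2 and Tlr4, receptors for bacterial lipopeptide and lipopolysaccharide, were at 4.75 ± 0.0759 against 55.9 ± 6.34 CPM and 1.96 ± 0.914 against 15.3 ± 2.09 CPM. Nlrp3, the inflammasome sensor, was at 1.11 ± 0.849 against 20.7 ± 2.0 CPM and Aim2, which senses DNA, at 1.09 ± 0.529 against 58 ± 5.8 CPM. Pycard, the adaptor ASC that RAW264.7 is known to lack, held 5, 5 and 2 reads in the macrophages and was at 1.33, 1.29 and 1.26 CPM in liver. Tlr5, the flagellin receptor, stood at 13.2 ± 2.65 CPM in liver without a macrophage read, and Tlr3 and Nod1 were also higher in liver.

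Cytokines divided by gene. Of 19 tested genes 12 were higher in liver and 7 in the macrophages, while Il6, Il10, Cxcl2, Csf2 and Pf4 did not pass the filter. On the macrophage side were Spp1, which encodes osteopontin, at 35.6, 24.7 and 23.4 CPM in liver and 574, 517 and 506 CPM in the macrophages, Ccl3 at 0.086 ± 0.081 against 49.8 ± 2.27 CPM and Tnf at 0.201 ± 0.205 against 10.3 ± 0.228 CPM. Il1b was nearly unread in the macrophages, with 1, 0 and 1 reads against 9.84, 11.1 and 8.43 CPM in liver. Cxcl12, a stromal chemokine, was at 586 ± 58.1 CPM in liver with no macrophage read. Among 26 receptors 13 were higher in liver, led by the growth factor receptors Egfr and Met with no macrophage reads, and 8 in the macrophages, led by Tnfrsf11a, the RANK receptor of osteoclast precursors, at -5.21 ± 0.32. Of 15 complement and Fc receptors 8 were higher in liver and 4 in the macrophages, among them Itgb2 at -4.22 ± 0.13 and the C5a receptor C5ar1 at -2.95 ± 0.26. With library size alone the counts were 8 and 8 for cytokines, 10 and 15 for their receptors and 6 and 9 for complement and Fc receptors, so the balance of these lists depends on the scaling.

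Interferon-stimulated genes were higher in liver for 23 of 28 genes, with a median of 2.76. Ifit3 stood at 25.3, 25.2 and 43.3 CPM in liver and 0.0648, 0.0683 and 0.216 CPM in the macrophages, Isg15 at 23.6 ± 4.48 against 0.457 ± 0.0878 CPM, and Irf7 at 115 ± 11.7 against 24.9 ± 3.96 CPM. Oas3, Oas2 and Ifi44 ran the other way. Oas3, a sensor of double-stranded RNA, was at 2.05, 3.06 and 3.68 CPM in liver and 80.8, 89.6 and 86.5 CPM in the macrophages. Antigen presentation had 14 of 23 genes higher in liver, 4 higher in the macrophages and 5 not called, and 12 and 11 with library size alone. The class II genes H2-Aa, H2-Ab1 and H2-Eb1 were at 77.3 ± 19.98, 47.6 ± 12.8 and 50.04 ± 9.51 CPM in liver and at 0 to 0.126 CPM on average in the macrophages, whereas their chaperone Cd74 was higher in the macrophages, at 140.4 ± 31.5 against 515 ± 36.9 CPM. Ciita, the master regulator of class II, held 3, 0 and 1 macrophage reads. The class I genes H2-K1 and H2-D1 were at 2527 ± 219 against 172 ± 10.5 CPM and 929 ± 88.7 against 452 ± 22 CPM, and H2-D1 turned with library size alone, to -0.35. RAW264.7 comes from BALB/c mice, whose alleles at these loci differ from those of the C57BL/6 reference, and how the reads of the line aligned there was not tested.

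Markers of other cell types were looked for in both groups. Liver endothelium (12 of 12 genes) and stellate cells and fibroblasts (12 of 12) were called higher in liver throughout. Clec4g and Stab2, of sinusoidal endothelium, were at 99.3 ± 24.1 and 56.7 ± 2.31 CPM in liver, and Dcn and Reln, of stellate cells, at 155 ± 12.8 and 51 ± 6.43 CPM. Of 6 tested bile duct genes 5 were higher in liver, among them Krt19, Sox9 and Krt7 at 10.7 ± 5.1, 10.2 ± 2.33 and 7.7 ± 5.18 CPM with no macrophage read. The other was Spp1, higher in the macrophages at -4.26 ± 0.18, and with it the summed level of the list was 89.98 to 94.6 CPM in liver and 507 to 575 CPM in the macrophages. Reads on the T cell, NK cell and neutrophil genes were few in both groups. Only 3 of 10 T cell genes, 1 of 10 NK cell genes and 1 of 12 neutrophil genes passed the filter. Summed over each list, T cell genes reached 8.1 to 11.3 CPM in liver and 5.16 to 5.94 CPM in the macrophages, and neutrophil genes 5.23 to 6.4 CPM and 0.239 to 0.746 CPM. Of 5 tested dendritic cell genes 4 were higher in liver, and of 5 adipocyte genes 4, although the adipocyte hormone Adipoq did not pass the filter. Pancreas acinar genes were at or near 0 apart from Cela1, at 32.6 ± 7.9 against 0.564 ± 0.163 CPM.

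Immunoglobulin transcripts were present in the macrophage line. Ighm, the constant region of the IgM heavy chain, stood at 18, 13 and 17.3 CPM in liver and 106, 116 and 116 CPM in the macrophages, a log2 fold change of -2.81 ± 0.15. The joining segment Ighj1 held 101, 89 and 108 macrophage reads and no liver read, and Ighj3 and Ighj4 were likewise at 0 in liver with 29 to 89 macrophage reads a library. The kappa light chain gene Igkc was the reverse, at 7.02 ± 1.19 CPM in liver and without a macrophage read, and Cd79a and Cd79b of the B cell receptor were at 2.2 ± 0.439 against 0.327 ± 0.0813 CPM and 2.72 ± 0.846 against 0.107 ± 0.0451 CPM. Ms4a1 did not pass the filter, with no read in the macrophages.

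Globin genes varied between the liver libraries. All 5 tested genes of the erythroid list were higher in liver. The beta globin gene Hbb-bs held 436, 7665 and 2374 reads in liver replicates 1, 2 and 3, and the alpha globin Hba-a1 232, 3983 and 1258. Both were highest in replicate 2 and lowest in replicate 1, and they had the largest SD of log2 CPM of any liver gene with a mean of at least 50 CPM. Hba-a1 and Hba-a2 are near-identical, so their split is uncertain. Alas2, of haem synthesis, was at 202, 329 and 360.4 CPM in liver. Others with a large spread in liver were Mup14, Mup17, Serpina1e, Selenbp2, Mug3-ps and mt-Co2. Mup14, with 6920, 26628 and 44341 reads, was lowest in replicate 1, as was Mup17. How reads were split among the Mup genes, here and above, was not tested. Among the macrophage libraries the most variable genes included Cenpf, a kinetochore protein, at 93.4, 59.7 and 72.8 CPM, and Ranbp2, of the nuclear pore, at 163, 111 and 113 CPM. Replicate 1 was highest in both. It was also highest in the others of that set, which were Arhgap5, Rock1, Rock2, Phip, Tpr and Vps13a.

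Genes of dividing cells set the line apart. All 28 mitosis genes were higher in the macrophages and all passed 4-fold, with a median of -5.68, and the direction held with library size alone. Mki67, the Ki-67 antigen of cycling cells, stood at 1.95, 1.05 and 1.74 CPM in liver and 305, 218 and 243 CPM in the macrophages. Top2a, which untangles DNA, was at 1.64, 2.33 and 2.42 CPM in liver and 281, 223 and 227 CPM in the macrophages. In both genes replicate 1 was the highest macrophage library, and no liver library came near. Bub1, a checkpoint kinase, was nearly unread in liver, with 1, 1 and 0 liver reads against 86.1, 68.5 and 67.3 CPM. DNA replication genes were less separated, with 27 of 33 higher in the macrophages. Uhrf1 and Ccna2 were at -5.41 ± 0.18 and -5.99 ± 0.16. Tyms, which makes thymidylate, was higher in liver at 13.5 ± 1.42 against 5.0 ± 0.406 CPM, and the direction of Rfc2 and Rfc3 turned with library size alone. Tk1 was not called, at 34.8 ± 6.51 against 33.1 ± 1.05 CPM.

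Growth regulators differed by family member. Mycn was among the 15 genes with the largest difference on the macrophage side, with 10, 7 and 18 reads in liver and 22252, 24416 and 26930 in the macrophages, and stood at 722, 834 and 833 CPM. Myc was low in both, at 3.94 ± 1.83 against 2.51 ± 0.483 CPM, and was not called. Ccnd1 and Cdkn1a, the inhibitor p21, were at 14.3 ± 0.586 against 167 ± 10.1 CPM and 30.1 ± 7.36 against 573 ± 36.1 CPM. Trp53 and its regulator Mdm2 were at -1.27 ± 0.12 and -2.34 ± 0.20. Cdkn2a and Cdkn2b did not pass the filter, with no macrophage read. Cdkn1c was the reverse, at 3.74 ± 1.14 CPM in liver with none in the line. Abl1, the cellular gene of the Abelson kinase, was at 41.8 ± 3.48 against 77 ± 5.45 CPM, but viral sequence was not counted. Nnt, which is known to carry a deletion in C57BL/6J mice, held at most 9 reads in any liver library and 6 in any macrophage library.

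Serine synthesis and one-carbon genes were also mostly higher in the line. Of 21 genes 14 were higher in the macrophages, 4 in liver and 3 were not called, with a median of -4.94. Psat1, of the serine pathway, stood at 0.82, 2.09 and 1.55 CPM in liver and at 319.9, 346 and 348 CPM in the macrophages. Phgdh, its first enzyme, stood at 0.308, 1.37 and 0.291 CPM in liver and at 126, 149 and 146 CPM in the macrophages, so that neither overlapped between the groups. Asns, asparagine synthetase, was at -6.19 ± 0.28, the cystine carrier Slc7a11 at -6.90 ± 0.49 and the mitochondrial folate enzyme Mthfd2 at -5.66 ± 0.15. The cytosolic counterparts Shmt1 and Mthfd1 were higher in liver, at 383 ± 25.4 against 13.6 ± 0.414 CPM and 406 ± 26 against 55.1 ± 4.34 CPM. Atf4, the factor known to drive many of these genes, was higher in liver at 0.63 ± 0.11 and turned with library size alone, to -0.76, and its targets Ddit3, Trib3 and Chac1 were not called.

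Lysosome genes differed in both directions. Of 40 genes 20 were higher in the macrophages, 13 in liver and 7 were not called, with a median of -0.30. Over all tested genes 41.9% were called higher in the macrophages and 42.9% in liver. Atp6v1a and Ctss were at -3.39 ± 0.14 and -2.50 ± 0.11, and Ctsl and Lamp2 at 2.62 ± 0.12 and 2.41 ± 0.12. Ctsb was level, at 1150.0 ± 43.5 against 1051 ± 77.1 CPM. Lipa, the lysosomal lipase that frees cholesterol from lipoproteins, was at 389.8 ± 53.9 against 197 ± 8.79 CPM and turned with library size alone, to -0.39. With library size alone 36 of the genes were called higher in the macrophages and 2 in liver. Actin and motility genes were higher in the macrophages for 19 of 29. Vim, the intermediate filament vimentin, stood at 43.7, 70.2 and 104 CPM in liver and at 919.7, 1028 and 1001 CPM in the macrophages. Capg, which caps actin filaments, was at 6.24 ± 2.55 against 334 ± 24 CPM. Fscn1, which bundles actin, was higher in liver at 4.78 ± 0.43, and Actb, Pfn1 and Actg1 were higher in liver with TMM only.

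Genes of machinery that all cells share were compared next. Genes of nuclear oxidative phosphorylation were higher in liver for all 38, with a median of 2.09. With library size alone 31 were higher in liver and 3 in the macrophages. Cox5b and Ndufa4 were at 363 ± 63.5 against 50.2 ± 6.67 CPM and 519.9 ± 91.9 against 45.2 ± 3.15 CPM. Of 13 mitochondrially encoded genes 11 were higher in liver, or 7 with library size alone. Mt-Cytb and mt-Nd2 were at 9315 ± 2987 against 1149 ± 90.7 CPM and 7481 ± 3298 against 734 ± 47.1 CPM, while mt-Nd5 was not called, at 2167 ± 1085 against 2037 ± 129 CPM. The ratio of mt-Co1 to mt-Cytb also differed. In liver mt-Co1 held 506824, 468671 and 521602 reads and mt-Cytb 122520, 83082 and 89711. In the macrophages mt-Co1 held 650169, 546811 and 604800 reads and mt-Cytb 38437, 31235 and 36664. For the citric acid cycle, 13 of 17 genes were higher in liver and 3 in the macrophages (7 and 8 with library size alone), and Cs, its entry enzyme, was higher in the macrophages at -0.81 ± 0.12. The constitutive proteasome had 26 of 31 genes higher in liver and none higher in the macrophages. With library size alone this became 8 and 12. The median relative to that of all genes was 1.24 with TMM and 1.23 with library size alone. A change of scaling shifts all genes by nearly the same amount, so this agreement was fixed in advance and holds for any list.

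Ribosomal protein and translation factor genes leaned to the macrophages, 38 of 47, by a median of -0.69. As a share of counts the contrast was larger, at 1.56 to 1.92% in liver and 7.38 to 7.91% in the macrophages. The exceptions were Rps2, Rps18 and Rpl30, which were called higher in liver at 3.47 ± 0.20, 3.12 ± 0.18 and 2.30 ± 0.13. Reads of such genes are shared with processed copies elsewhere in the genome, and the study's counting could split them. With the 4 tested copies named after Rps2 added, the level was 1543 ± 392 CPM in liver and 1054 ± 89.1 CPM in the macrophages, and the log2 difference of the means went from 3.47 to 0.55. For Rps18 with its 2 copies so named it went from 3.12 to 1.42, and for Rpl30 with its 1 copy so named from 2.30 to 2.26. Copies under other names were not added, so these sums are incomplete. Pseudogenes took 0.393 to 0.454% of the liver counts and 2.0 to 2.2% of the macrophage counts. Of 786 tested pseudogenes 192 were called higher in liver, 316 were higher in the macrophages and 278 were not called, beside 42.9% and 41.9% of all tested genes. The macrophage share of these calls is thus near that of all tested genes. Since reads can be split between a gene and its copies, levels assigned to copies such as Rps2-ps10 or Gm13394 are uncertain.

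Ribosome production, splicing and protein folding differed by small amounts in most genes. In ribosome production 14 of 20 genes were higher in the macrophages, led by Npm1 and Ncl, nucleolar proteins, at 59.9 ± 12.6 against 946 ± 159 CPM and 72.7 ± 17.8 against 495 ± 76.7 CPM. For the spliceosome 13 of 24 were higher in the macrophages, 5 in liver and 6 were not called, beside 41.9% and 42.9% of all tested genes. Hnrnpa1, a splicing regulator, was the most separated at -3.34 ± 0.12. Chaperones of the endoplasmic reticulum had 10 genes higher in liver, 9 in the macrophages and 4 not called, and 1 and 18 with library size alone. Hspa5, the chaperone BiP, was at 553 ± 156 against 1504 ± 83.8 CPM and Xbp1 at 438 ± 39.8 against 201 ± 6.77 CPM, and Xbp1 turned with library size alone, to -0.27. Antioxidant genes were higher in liver for 24 of 26, with the superoxide dismutase Sod1 and the glutathione peroxidase Gpx1 at 1590.1 ± 224 against 159 ± 8.87 CPM and 4822 ± 1319 against 168 ± 16.4 CPM, while Hmox1 and the metallothionein Mt1 were higher in the macrophages, at -2.39 ± 0.16 and -2.55 ± 0.19. Of 8 tested histone genes 4 were higher in liver and 2 in the macrophages, and with library size alone 2 and 6. Beside 42.9% and 41.9% of all tested genes, 8 of 18 clock genes were higher in liver and 8 in the macrophages. With library size alone these counts were 5 and 10. The clock genes ran from Hlf, at 8.43 ± 0.24, to Bhlhe41, at -6.49 ± 0.30. The time of day of sampling was not used here.

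Genes commonly used as references were not level. Of 19 tested genes 6 were higher in liver, 10 were higher in the macrophages and 3 were not called. Those not called were Ppia, at 1156 ± 263 against 1067 ± 59.99 CPM, Ywhaz, at 168 ± 10.7 against 177 ± 7.56 CPM, and Rplp0, at 894 ± 189 against 1175 ± 107 CPM. Tbp differed by -0.41 ± 0.17. Gapdh and Actb were higher in liver with TMM, at 266 ± 10.04 against 156 ± 14.4 CPM and 1119.5 ± 151 against 525 ± 45.7 CPM, and lower with library size alone. Tubb5 was the most separated, at -2.57 ± 0.14. Over all tested genes, 637 had a 95% interval of the log2 fold change within 0.5 of 0, and 86 of these reached 100 CPM in both groups. Nearest to equality was Calr, a chaperone of the endoplasmic reticulum, at 977, 1083 and 1152 CPM in liver and 998, 1188 and 1027 CPM in the macrophages. Sec24c, Adipor1, Eif3g, Rnf4, Diaph1, Prelid1, Eef1d and Sgpl1 were among those that followed, each within 0.02 of 0 on the log2 scale. This equality holds for TMM, since with library size alone Calr was at -1.39.

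Levels per length, as TPM, in which reads are divided by the annotated exon length and each library is scaled to the same sum, showed what each group made most of. In liver the 12 highest were mt-Co1, Alb, Apoa1, Apoe, Fabp1, Ttr, mt-Cytb, Mup3, mt-Nd2, Hpx, mt-Nd1 and Mup7. Alb was at 61909.6 ± 3349 TPM, Apoa1 at 28287 ± 3918 and Fabp1, a fatty acid carrier of the liver, at 18829 ± 1687. In the macrophages the highest were mt-Co1 at 83002 ± 7359.6 TPM, the elongation factors Eef1a1 and Eef2 at 15437 ± 108 and 10965 ± 740.2, the glycolytic Pgk1 at 8141 ± 37.7, ribosomal Rplp1, mt-Nd5, mt-Nd1 and mt-Cytb, with 4 pseudogenes among them. Apart from 3 mitochondrial genes, the 12 highest of the groups had no gene in common.

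Genes read in one group and at 0 in all libraries of the other were counted last. Among protein-coding genes, 977 reached 1 CPM in all liver libraries with no read in any macrophage library, and 89 reached it in all macrophage libraries with no liver read. If up to 3 reads a library are allowed on the silent side, the numbers were 1441 and 277. The scaled depth is unequal, since 3 reads a library stand for 0.28 CPM in liver and 0.0975 CPM in the macrophages. On the macrophage side Car12, a carbonic anhydrase of the cell surface, had the highest bound, with 6674, 6678 and 6916 reads and none in liver, at least 784-fold higher. Irx2, a homeobox factor, held 1749, 1733 and 1877 macrophage reads and none in liver. Cldn11, a claudin, held 1050, 1081 and 1397 and Tnfsf9, the 4-1BB ligand, 611, 589 and 606, again with none in liver. Reads on the microRNA genes of this set, Mir133a-2 and Mir1957a, do not measure mature microRNAs. Other large differences on this side were Fxyd2, a subunit of the sodium pump, at 0.273 ± 0.0605 against 538 ± 34.7 CPM, Eno2, a neuronal enolase, at 0.292 ± 0.19 against 243 ± 5.71 CPM, the anion carrier Slco4a1 at 0.334 ± 0.0602 against 239 ± 13.2 CPM and the integrin Itga4 at 1.84 ± 0.664 against 588 ± 101 CPM.

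**Figure D5:**
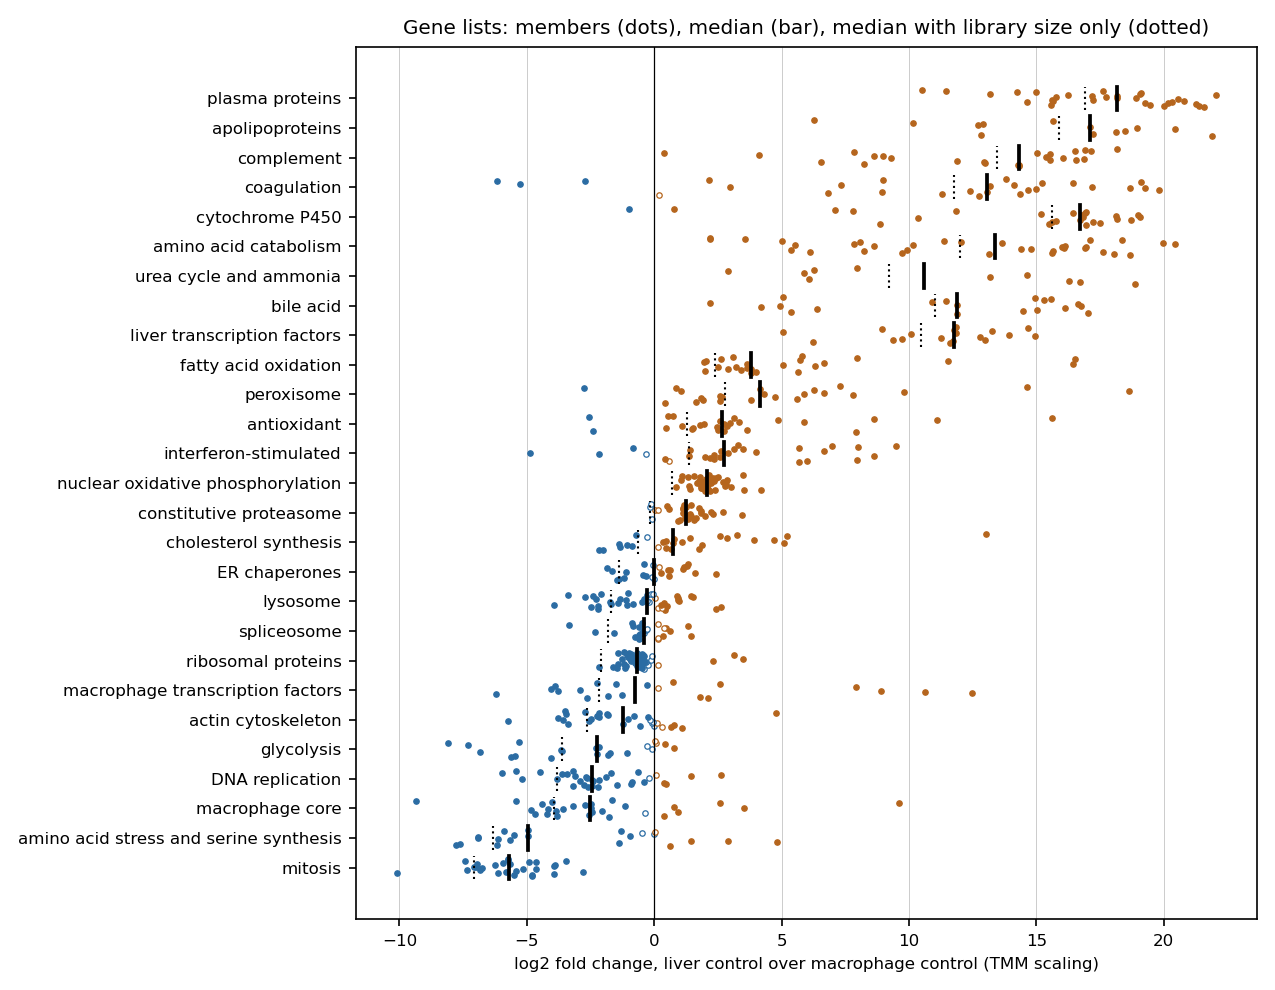
Log2 fold change of liver control over oxLDL macrophage control (TMM scaling) for the tested members of 27 gene lists, with 1 dot per gene; filled dots were called, open dots were not, brown is higher in liver and blue higher in macrophages. Solid bars mark list medians and dotted bars the medians with library size alone. Points of genes with no read in one group depend on the prior count of the fit. Medians run from 18.15 for plasma proteins (15.43 with such genes at their bound) to -5.68 for mitosis, and for lists with a solid bar near 0 the dotted bar can fall on the other side.

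Promoter sequence was compared between the 2 directions. Windows from 250 bases before to 50 after the start of the canonical transcript were read for the 200 called genes with the largest log2 fold change in each direction and at least 20 CPM in the higher group. All 200 genes of the liver set were protein-coding, against 180 of the macrophage set, so the sets differ in gene type too. The homeodomain core GTTAAT, on either strand, was in 23% of the liver windows, in 5.0% of the macrophage windows and in 5.63% of the windows of all tested genes, or 6.89% of those of all protein-coding genes. A TATA box, TATAAA on the plus strand, was in 14.5, 4.5, 5.61 and 8.95% in the same order. CpG dinucleotides also separated the sets. The median was 3 per window for the liver genes, 12 for the macrophage genes, 15 for tested genes and 11 for protein-coding genes, and windows with 3 or fewer made up 58, 12.5, 11.1 and 24.9%. Motifs of macrophage factors stood close to the background on the macrophage side. PU.1 (GAGGAAGT) was in 2.5% of its windows and 2.82% of all tested, and AP-1 (TGANTCA) in 7.5 and 5.59%. In the liver windows PU.1 was in 1.5% and AP-1 likewise in 7.5%. HNF4 (CAAAGTCCA), forkhead (TGTTTAC), C/EBP (TTGCGCAA) and E2F (TTCCCGCC) elements were each in at most 4.5% of every set, and the CCAAT box was in 47.5 and 44.5% against 38.8%. All were searched on both strands other than the TATA box, and no searched motif contains another. These shares are descriptions of letters and not of bound sites.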

How the data were processed

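RNA-seq counts per gene were deposited by the authors as raw counts in a liver table and a macrophage table, and only the control columns were used. Per the labels and the study's methods, total RNA was extracted with Trizol, libraries were made with a NEBNext Ultra kit, paired reads were aligned with HISAT2 2.2.1 and counted with featureCounts. The build is GRCm39 by the methods, and the strand setting, the treatment of multiply mapped reads and the annotation release are not given in the sources used here. The tables were joined by Ensembl ID and named from GENCODE. Members of the comparison and gene lists were chosen with earlier results of these data known.

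Genes passing filterByExpr (14861 of 26088 with a read) were scaled by TMM and tested by edgeR 4.0.16 quasi-likelihood with tissue as the single term, two-sided, with Benjamini-Hochberg adjustment over all of them, and by glmTreat against 4-fold. The code was tested on simulated data. TMM factors were 0.579 to 0.666 in liver and 1.60 to 1.63 in the macrophages, and since this scaling sets the balance of directions, list counts that turned are also given for library size alone. Lists were described by counts and medians, without a test, and paralogue pairs by ratios within a library. Named were, in each direction, the 15 largest differences at 100 CPM or more, the 12 highest levels per length in each group, the genes nearest to equality, the most variable genes, genes at 0 in one group, and list members with the smallest p-values or against the direction of their list. Other list members were named after their values were seen. Alternatives covered scaling, filters, tool (DESeq2 1.42.0, limma 3.58.1), a replicate block and leaving out each library. With 3 libraries a group an exact permutation test cannot go below p = 0.1, so no single-gene test outside the models was used. Symbols Ahsp, Cyp4f3 and Hprt had no match. The study also deposited esculetin-treated libraries, which were not used here. RefSeq promoters were given for 76.5% and 73.0% of the promoter sets, so windows were read from GRCm39 instead. Some members of the lists and pairs are counted but not reported here by name or drawn in the plots of markers and pairs.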

Additional observations from a re-analysis of the deposited data

How the results depend on the processing

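Placing the scaling on library size alone changed the balance of directions. It called 3930 genes higher in liver and 9496 higher in the macrophages, with 2605 and 5039 past 4-fold in place of 3439 and 2422. Among the genes it reversed, others of which are marked in the results above, were Slc25a5, Plin3, Nr1h2, Ldha and mt-Co1, at -0.60, -0.36, -0.81, -0.97 and -0.12 on the log2 scale. RLE factors called 12510 genes, upper quartile factors 12744, DESeq2 12446 and limma-voom 12666. Leaving out each library in turn gave 12370 to 13151 calls, 6361 to 6649 of them higher in liver and 6008 to 6502 higher in the macrophages, and 5787 to 6330 past 4-fold. Whether replicate numbers mark anything shared by both groups was not tested. The deviations of same-numbered libraries correlated at 0.231, 0.0551 and 0.0930, and values for libraries of unlike number are not given. With the replicate block 12657 genes were called. Without a filter on low counts 15161 of 26088 genes were called, and with at least 1 CPM in 3 libraries 11760 of 13738. The criterion stated by the study, an unadjusted p under 0.05 with a 1.5-fold change in limma-voom, gave 11807 genes. With a pseudocount of 1 read, the pair Ppara over Pparg differed by 1.73 in place of 2.45. Depth limits genes at 0, for which 3 reads a library stand for 0.280 CPM in liver and 0.0975 CPM in the macrophages.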
